A study of Solanum lycopersicum with 2 samples.

Results

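The 6 genes that carry out the formation of lycopene, from phytoene synthase to the carotenoid isomerase CRTISO, were examined in red ripe tomato fruit. They were taken by locus, as PSY1 (Solyc03g031860), PSY2 (Solyc02g081330), PDS (Solyc03g123760), ZISO (Solyc12g098710), ZDS (Solyc01g097810) and CRTISO (Solyc10g081650), and all 6 were present among the 34725 gene identifiers of the deposited table. The names follow published tomato locus assignments. The RefSeq gene table used here holds each of the names on the chromosome that the identifier numbers, for 6 of 6 genes, but lists no Solyc identifiers of its own. RNA sequencing compared fruit of a line overexpressing ALMT9, an aluminum-activated malate transporter, with wild type fruit, to search for genes regulated along with ALMT9 during ripening. Both genotypes were harvested at the red ripening stage, 49 days after flowering, from 3 plants per genotype, and each is represented by 1 library. The labels name a single overexpression line, give neither the promoter that drives ALMT9 nor the cultivar, and are silent on pooling of the plants. With a single library per genotype nothing could be tested against replicates, so the comparisons describe these 2 libraries and carry no p-values.

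Lycopene is the red pigment of ripe tomato fruit and is made in plastids. Phytoene synthase joins geranylgeranyl diphosphate molecules into colourless phytoene, the committed step of carotenoid synthesis. The desaturases PDS and ZDS then add double bonds, and the isomerases ZISO and CRTISO turn the cis intermediates into forms that the next enzyme or the finished pigment requires. In tomato, PSY1 is the phytoene synthase of fruit, and its loss gives yellow fruit, whereas PSY2 serves mainly green tissue. Loss of CRTISO gives the orange fruit of the tangerine mutant, which stores prolycopene in place of all-trans lycopene.

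Levels are given as RPKM, the reads of a gene per kilobase of gene model and scaled to the reads of the library. From the values, 19252026 reads could be recovered as the total of the overexpression library and 19736832 reads as that of the wild type. The overexpression label was checked at the locus entered for ALMT9, Solyc06g072910.2, which had 20.5 RPKM in the overexpression library and 0.0742 RPKM in the wild type. That wild type value corresponds to 1 recovered read. The next identifier in number was also higher, at 39.0 RPKM in the overexpression library and 0.175 RPKM in the wild type. Loci entered as markers of ripe fruit were abundant in both, with 7 of 7 between 524 and 3069 RPKM in the overexpression library and between 305 and 3979 RPKM in the wild type. Their direction was mixed, with 5 of 7 above 0 and 2 below on the log2 scale described below. Of all genes tested, 48.8% lay below 0. Of the 7 loci, 2 were at least 2-fold higher and none 2-fold lower, against 8.09% and 4.3% of all genes tested. Their log2 values ran from -0.98, just short of 2-fold lower, to 1.86. The counting interval of the RPKM ratio lay above 1 for 5 and below 1 for 2, as it did for 32.5% and 29.9% of all genes tested. The 9 loci entered for green tissue summed to 25.03 RPKM in the overexpression library and 17.7 RPKM in the wild type, with 1 locus at 0 in the overexpression library and 2 loci at 0 in the wild type. The 6 loci entered for seed summed to 29.9 RPKM in the overexpression library and 180 RPKM in the wild type. Of these seed loci, none was at 0 and 5 of the 5 with a mean of at least 1 RPKM were at least 2-fold lower in the overexpression library, against 4.3% of all genes tested. The remaining seed locus, below that mean, went the other way. It had 0.448 RPKM (11 recovered reads) in the overexpression library and 0.0397 RPKM (1 recovered read) in the wild type. The part of the ripe fruit, green tissue and seed values in the results below was not tested, and in bulk fruit fewer cells of a type and less RNA per cell cannot be told apart.

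Every gene of lycopene formation stood lower in the overexpression library, by between 9.29% (ZISO) and 48.5% (CRTISO). Each scaling run lowers overexpression values relative to wild type, so the scalings could not test this direction. The order of levels along the pathway was uneven. PSY1 and ZISO were among the most abundant transcripts of the fruit, and PSY2, PDS, ZDS and CRTISO were far lower in both libraries. CRTISO and PDS, at the end and at the first desaturation of the pathway, had the lowest ratios, and ZISO and PSY2 the ratios nearest to 1. No gene differed by 2-fold on the deposited scale. CRTISO did so, on the log2 scale, at -1.03 with the libraries scaled to equal sums and at -1.01 with the length trend taken out.

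**Figure D1:**
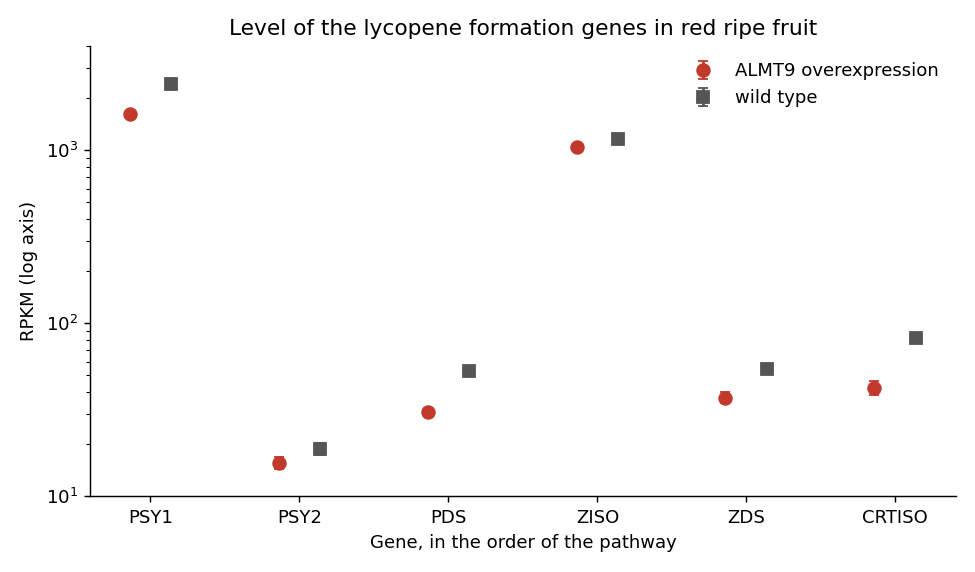
RPKM (log axis) of the 6 genes, in pathway order, in the ALMT9 overexpression library (circles) and the wild type library (squares); bars are exact Poisson 95% counting intervals, mostly smaller than the symbols. PSY1 and ZISO lie above 1000 RPKM in both libraries, the other genes below 100 RPKM, and each overexpression value lies under its wild type value.

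PSY1, which makes phytoene in ripening fruit, had 1614 RPKM in the overexpression library and 2408 RPKM in the wild type. It was the most abundant of the 6 genes and ranked 25 among all identifiers in the overexpression library and 17 in the wild type. The RPKM ratio was 0.67, with an exact (Clopper-Pearson) 95% counting interval of 0.664 to 0.677, from at least 60010 reads in the overexpression library and at least 91755 in the wild type. Read numbers are the smallest that the RPKM values allow, so intervals may be too wide. The intervals cover counting error only, not differences between fruits, plants or library preparations, nor the choice of scaling.

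PSY2, the phytoene synthase mainly of green tissue, had 15.6 RPKM in the overexpression library and 18.8 RPKM in the wild type, the lowest level of the 6 genes in each. Its ratio was 0.832 (0.744 to 0.929). Per length, PSY1 exceeded its paralog PSY2 by 104-fold in the overexpression library (interval 95.4 to 113) and 128-fold in the wild type (119 to 138). Reads that match both genes could not be separated in these values, and how the counting treated them is not given in the sources used here. Whether PSY1 reads entered the PSY2 value was not tested.

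The 2 desaturases stood close together in level. PDS, which converts phytoene by way of phytofluene to ζ-carotene, had 30.7 RPKM in the overexpression library and 52.7 RPKM in the wild type, so that the ratio was 0.583 (0.544 to 0.624). ZDS, which carries ζ-carotene on to prolycopene, had 37.1 RPKM in the overexpression library and 54.0 RPKM in the wild type, and its ratio was 0.687 (0.628 to 0.752). Both desaturases were thus lower in the overexpression library. Relative to each other, PDS stood at 0.828 times the ZDS level in the overexpression library (0.758 to 0.905), and at 0.977 times it in the wild type (0.91 to 1.05), where the interval spans equal levels.

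The 2 isomerases differed widely, both in level and in the difference between libraries. ZISO, which isomerises the ζ-carotene formed by PDS before ZDS acts on it, had 1047 RPKM in the overexpression library and 1154 RPKM in the wild type. Its ratio was 0.907 (0.879 to 0.936), and it was the gene nearest to equal levels. CRTISO, which turns prolycopene into all-trans lycopene, had 42.2 RPKM in the overexpression library and 82.0 RPKM in the wild type. Its ratio of 0.515 was the lowest of the 6, with an interval of 0.462 to 0.574 that includes a 2-fold difference. ZISO exceeded CRTISO per length by 24.8-fold in the overexpression library (22.6 to 27.2) and by 14.1-fold in the wild type (13.2 to 15.04).

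**Figure D2:**
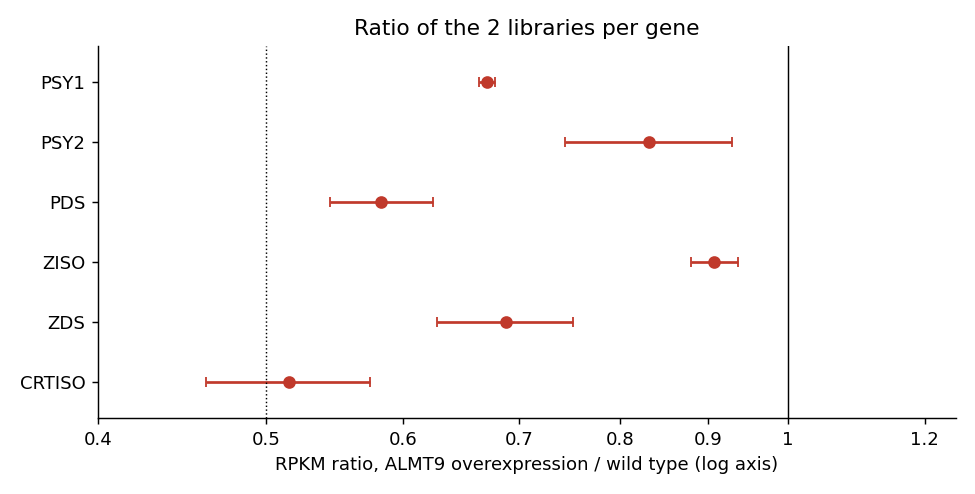
RPKM ratio of the ALMT9 overexpression library to the wild type library (log axis) for each gene, with exact 95% counting intervals; the solid line marks equal levels and the dotted line a 2-fold lower level. All 6 ratios lie below 1, from 0.515 for CRTISO to 0.907 for ZISO, and only the CRTISO interval reaches the 2-fold line.

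Ordered by level, the genes ran PSY1, ZISO, CRTISO, ZDS, PDS and PSY2 in both libraries. In the overexpression library each step of this order exceeded counting error, the narrowest being CRTISO over ZDS at 1.14-fold (1.02 to 1.27). In the wild type the same step was 1.52-fold (1.39 to 1.65), and ZDS and PDS did not differ beyond counting error, at 1.02-fold (0.954 to 1.1). The largest step was the one from ZISO to CRTISO in each library. Levels of different genes also rest on the gene model lengths that divide their reads, which the counting intervals do not cover. The range from PSY2 to PSY1 is the 104-fold and 128-fold difference given above.

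Set against all genes, the group lay towards the lower side. Differences were expressed as log2((overexpression + 1)/(wild type + 1)) for the 17287 genes with a mean of at least 1 RPKM. The 6 genes had a median of -0.55 on this scale, against 0.016 over all genes tested. All 6 lay below 0, as did 48.8% of all genes, and all 6 had a counting interval of the ratio below 1, as did 29.9% of all genes, while 32.5% of all genes had one above 1. Counting intervals narrow as reads rise, and no share was taken for genes with read numbers like those of the 6. None of the 6 was at least 2-fold apart, against 12.4% of all genes (4.3% lower and 8.09% higher). PDS and CRTISO, 2 of the 6, were at least 1.5-fold lower on this scale and none 1.5-fold higher, against 12.5% lower and 16.3% higher among all genes. PSY1 lay close to this threshold and passed it under each of 5 scalings, which made 3 of the 6 genes, and with libraries scaled to equal sums ZDS passed it too, which made 4.

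The single values of this log2 difference were -0.94 for CRTISO, -0.76 for PDS, -0.58 for PSY1, -0.53 for ZDS, -0.25 for PSY2 and -0.14 for ZISO. Counted from the lowest log2 difference of all genes tested, CRTISO stood at percentile 4.84, PDS at 7.89, PSY1 at 12.8 and ZDS at 14.7. PSY2 at percentile 29.97 and ZISO at 38.0 lay well within the central part of all genes. All 6 belong to the 10143 genes with a mean of at least 10 RPKM, of which 51.1% were below 0 and 12.5% showed a level lower by 1.5-fold or more.

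**Figure D3:**
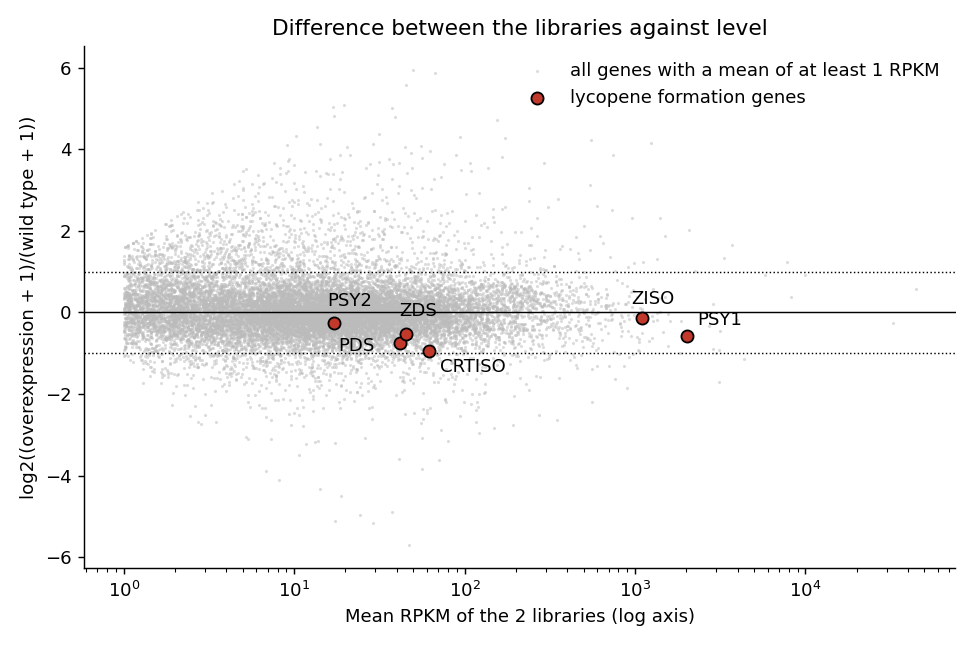
Difference between the libraries as log2((overexpression + 1)/(wild type + 1)) against mean RPKM (log axis) for all genes with a mean of at least 1 RPKM (grey) and the 6 lycopene formation genes (red, labelled); dotted lines mark 2-fold differences. The 6 genes lie between -0.94 and -0.14, under the zero line and inside the 2-fold lines.

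The 6 ratios differed among each other by more than counting error in most pairs. For each of the 15 pairs, the RPKM ratio of the first gene was divided by that of the second, and the 95% counting interval of this quotient excluded 1 in 12 pairs. No such share was taken over pairs of other genes with like read numbers, so this count does not set the 6 genes apart. The intervals come from the odds ratio of the reads, exact and conditional on the totals except in pairs with PSY1, whose read numbers required a normal approximation. ZISO against CRTISO gave the highest quotient, 1.76 (1.57 to 1.97), so relative to CRTISO the level of ZISO was higher in the overexpression library. PDS against ZISO gave the lowest, 0.643 (0.596 to 0.693). PSY1 was likewise lower relative to ZISO in the overexpression library, with a quotient of 0.739 (0.715 to 0.764).

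The pairs whose quotients included 1 joined genes from different steps. PSY1 and ZDS gave 0.975 (0.891 to 1.07), PDS and CRTISO 1.13 (0.995 to 1.29), and PSY2 and ZISO 0.917 (0.817 to 1.03). Since read numbers are the smallest possible, these intervals may be too wide, and the one of PDS and CRTISO only just reaches 1. By their ratios PDS and CRTISO were the lowest, PSY1 and ZDS lay between, and PSY2 and ZISO were nearest to 1. This grouping follows neither the order of the pathway nor the type of enzyme, since the synthases, desaturases and isomerases were each divided, with intervals that excluded 1 for PSY1 against PSY2 (0.806, 0.722 to 0.9), PDS against ZDS (0.848, 0.757 to 0.95) and ZISO against CRTISO. Such a grouping was made after the values were seen.

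**Figure D4:**
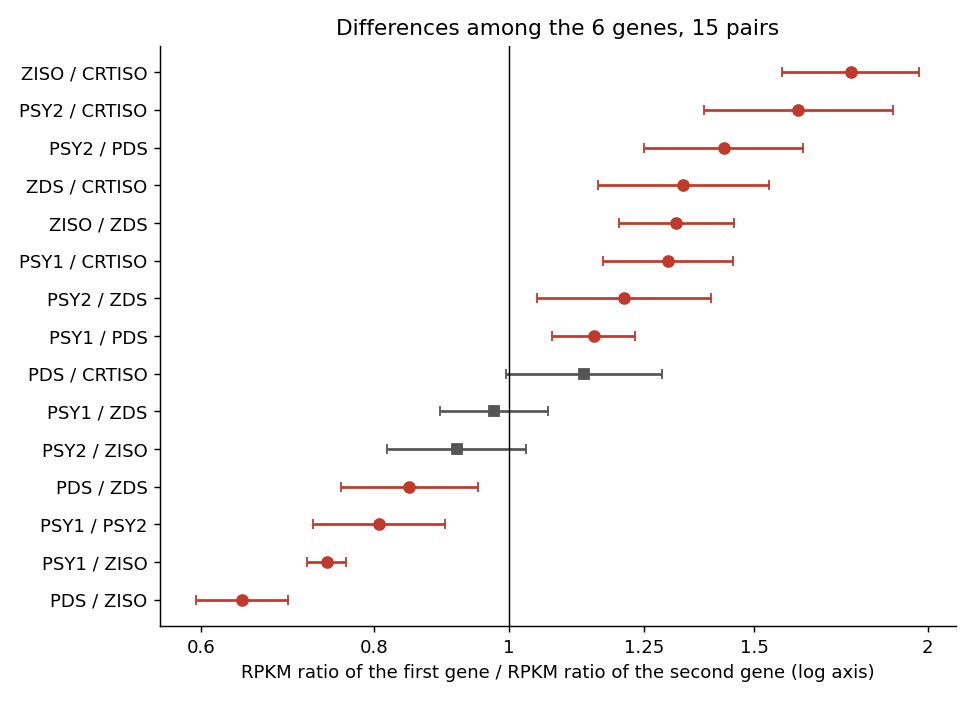
Quotient of the overexpression to wild type RPKM ratios of 2 genes (log axis) for the 15 pairs of lycopene formation genes, with 95% counting intervals; red circles mark intervals that exclude 1 and grey squares those that include it. Quotients run from 0.643 for PDS against ZISO to 1.76 for ZISO against CRTISO, and 3 pairs include 1.

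The steps before and after lycopene were described as 2 lists of loci entered from published tomato locus assignments. The upstream list holds the plastid MEP pathway, which makes the isoprenoid units, isopentenyl diphosphate isomerases and geranylgeranyl diphosphate synthases. The downstream list holds lycopene cyclases, carotene hydroxylases, xanthophyll enzymes and enzymes that cleave carotenoids. No table used here pairs these identifiers with names, so the loci are given as lists and not by name.

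Of the 13 upstream loci, 11 had a mean of at least 1 RPKM, of which 9 were below 0 on the log2 scale and 2 above. Below 0 lay 48.8% of all genes tested. In the upstream list 1 locus was at least 2-fold lower and none 2-fold higher, against 4.3% lower and 8.09% higher among all genes. Their median log2 difference was -0.35, the same side as the -0.55 of the 6 lycopene genes, and their single values spanned -1.33 to 0.93. Summed levels were 669 RPKM in the overexpression library and 923 RPKM in the wild type.

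Of the 15 downstream loci, 11 reached a mean of 1 RPKM, with 6 above 0 and 5 below. In this list 1 locus was at least 2-fold higher and none 2-fold lower, against 8.09% higher and 4.3% lower among all genes. The median log2 difference was 0.12, which turned to -0.10 when a mean of at least 10 RPKM was required, so no direction is given for this list. Summed levels were 533 RPKM in the overexpression library and 351 RPKM in the wild type. Its locus with the highest level accounted for 326 RPKM of the overexpression sum and 135 RPKM of the wild type sum. Whether the 3 stages of the pathway differ from each other was not tested.

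**Figure D5:**
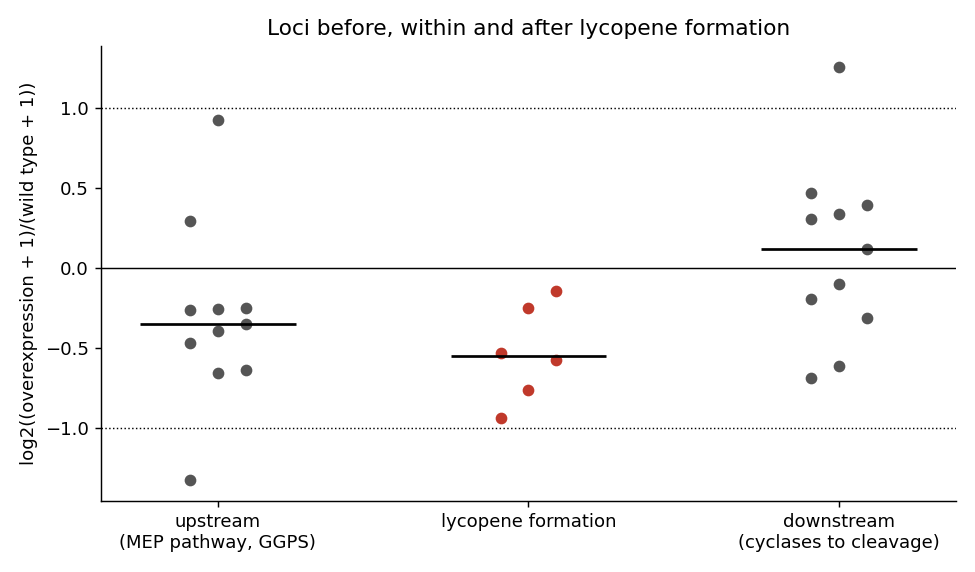
Difference between the libraries as log2((overexpression + 1)/(wild type + 1)) for upstream loci (11), the 6 lycopene formation genes and downstream loci (11) with a mean of at least 1 RPKM; each point is a locus, black bars are medians and dotted lines mark 2-fold differences. Medians are -0.35, -0.55 and 0.12, and the lycopene formation genes all lie below 0 while both lists have loci on either side.

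The identifiers whose levels in both libraries came closest to those of PSY1, other than the listed loci, were Solyc12g043160.1 and Solyc01g104720.2. Likeness was measured as the Euclidean distance of log2(RPKM + 1) over the 2 libraries, 0.29 for Solyc12g043160.1 and 0.4 for Solyc01g104720.2. Solyc12g043160.1 had 1725 RPKM in the overexpression library and 1984 RPKM in the wild type, and its ratio of 0.869 (0.84 to 0.899) lay nearer to 1 than that of PSY1. Solyc01g104720.2 had 1224 RPKM in the overexpression library and 2439 RPKM in the wild type, and its ratio of 0.502 (0.49 to 0.513) was below that of PSY1. With 2 libraries such likeness reflects little more than a similar level.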

How the data were processed

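Illumina sequencing of total RNA from red ripe fruit gave 1 library per genotype. The authors deposited 1 table of RPKM values per gene identifier. TopHat, an aligner for spliced reads, was used per the submitters' processing notes, which give no version. The genome build, annotation, counting program, use of strand and handling of multiply mapped reads are likewise not given in the sources that were used. Columns were assigned by the endings of the sample titles. Library totals and read numbers were recovered from the RPKM values as the largest totals, and then the shortest gene length of at least 60 bp, at which values were whole reads within rounding. This worked for 24426 of 24429 genes above 0. At these totals 83.3% of 4570 trial lengths were whole, against 41.0% at 2 times and 50.9% at 3 times as many reads. The rule took the largest total with more than 65% of trial lengths whole, so lower shares at multiples follow in part from the rule. The recovery was tested on data simulated from the recovered lengths, which cannot show whether the true lengths are multiples of them. The true read numbers can be multiples of those recovered. Differences are log2((overexpression + 1)/(wild type + 1)) among genes with a mean of at least 1 RPKM, without a test. The fold change understates low genes. The interval of a list's median is the median of its members' interval bounds.

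The 6 genes and the lists were chosen with earlier results of these data known. Named by a fixed rule are the 6 genes and the 2 identifiers nearest PSY1. The ALMT9 locus is named as the check of the label. Identifiers in the table matched 0 of the 41476 genes of the RefSeq table, so no sequence or coordinate is given. Alternatives covered the pseudocount, the filter, the fold threshold, 5 scalings (median centring included) and a correction by 10 classes of recovered length. Python 3.11.15, numpy 2.4.6, scipy 1.17.1, pandas 2.3.3 and matplotlib 3.10.9 were used.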

Additional observations from a re-analysis of the deposited data

How the results depend on the processing

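All 6 genes stayed below 0 on the log2 scale in each of the 12 alternatives run for them. No pseudocount, filter or scaling run could have turned this sign. The filters removed none of the 6 genes, and each of the 5 scalings lowers overexpression values relative to wild type. Only the correction by length classes could have turned it. CRTISO ranged from -1.03 to -0.88, PDS from -0.85 to -0.69, PSY1 from -0.67 to -0.57, ZDS from -0.62 to -0.49, PSY2 from -0.34 to -0.21 and ZISO from -0.23 to -0.14. PSY1 left its own counting interval in 4 of the 12 alternatives and ZISO in 3. CRTISO, PDS, ZDS and PSY2 stayed inside theirs in all 12. The median of the 6 genes, -0.55, was -0.64 with libraries scaled to equal sums, outside its counting interval of -0.62 to -0.48. It stayed inside in the other 11, but the filters among them left it unchanged and could not have moved it. Of the scalings, the one to equal sums lowers overexpression values most, with a log2 factor of -0.0893. Of the 6 genes, 2 were at least 1.5-fold lower, 4 with equal sums and 3 under the other 4 scalings, a count added after seeing the data. The downstream median of 0.12 was -0.10 with a mean of at least 10 RPKM required, since low loci left the list. Over all genes, the 2142 at least 2-fold apart were 1009 with a pseudocount of 5. They were 1414 with a mean of at least 5 RPKM required and 1050 with at least 10 RPKM. They were 4982 at 1.5-fold and 435 at 4-fold. No paired analysis was possible because the groups hold 1 library each, which also means that none could be left out. Recovered reads are the smallest possible numbers, and those of ZISO, ZDS and CRTISO may be whole fractions of the true ones, so the precision of the 6 ratios is not ranked.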

Other observations

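Added together, the 6 lycopene formation genes reached 2787 RPKM in the overexpression library and 3769 RPKM in the wild type, a ratio of 0.739. PSY1 made up 57.9% of this sum in the overexpression library and 63.9% in the wild type, while ZISO made up 37.6% in the overexpression library and 30.6% in the wild type. Both phytoene synthases together had a ratio of 0.672, both desaturases 0.636 and both isomerases 0.881. Without PSY1 the other 5 genes summed to 1173 RPKM in the overexpression library and 1362 RPKM in the wild type, a ratio of 0.861, most of it the ZISO level. CRTISO made up 1.52% of the sum in the overexpression library and 2.18% in the wild type. These shares follow the levels of PSY1 and ZISO and carry no replicate check. In rank among all identifiers, CRTISO stood at 3691 in the overexpression library and at 1858 in the wild type, PDS at 4885 in overexpression and 2961 in wild type fruit, and ZDS at 4147 in overexpression and 2890 in wild type fruit.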
